A study of Mus musculus with 90 samples.

Results

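The gene set described here, mitochondrial fat oxidation and ketogenesis, is a list of 8 mouse genes chosen by name from the pathway that brings fatty acids into liver mitochondria, shortens them and turns the product into ketone bodies. It holds *Cpt1a*, *Slc25a20*, *Cpt2*, *Acadvl*, *Acadl*, *Acadm*, *Hadha* and *Bdh1*. These are 8 of the 27654 gene IDs in the count tables, and all 8 were found and passed the filter on low counts. The members were chosen with earlier results of these data known. Their shares of calls, set beside those of all genes, therefore describe the list and do not test it. Long-chain fatty acids cross the mitochondrial membranes bound to carnitine, through an acyltransferase of the outer membrane, a carrier and another acyltransferase of the inner membrane, and are then cut to acetyl-CoA in repeated cycles of beta-oxidation. In the fasting liver much of that acetyl-CoA becomes acetoacetate and beta-hydroxybutyrate, the ketone bodies that other organs burn. The nuclear receptor PPARα and the glucocorticoid receptor (GR, encoded by *Nr3c1*) are both known regulators of this pathway in hepatocytes.

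Liver mRNA of male C57BL/6J mice was measured by bulk RNA sequencing, with poly(A) libraries and 100 bp reads. There were 90 libraries in 28 groups, each library from a separate mouse, and time is given as zeitgeber time (ZT), with ZT0 at lights on. In the time series, mice labelled GRfl/fl (floxed *Nr3c1* with no Cre, called WT here) and mice labelled GRfl/fl x Alb-Cre (called GR LKO) were sampled at 6 time points 4 h apart on Night Restricted Feeding (called control diet here) or Caloric Restriction. Caloric restriction gave 36 libraries with 3 mice per group, and the control diet gave 42 libraries with 3 or 4 mice per group. The floxed alleles were thus shared by every time-series mouse, and the albumin promoter drives Cre in hepatocytes, so other liver cells keep *Nr3c1*. A diet experiment at ZT12 compared 3 mice of genotype WT on caloric restriction with 3 mice of genotype WT titled AL, whose treatment label reads night-restricted feeding. A corticosterone experiment at ZT12 compared 3 WT mice given corticosterone supplementation (CORT) with 3 WT mice labelled as the night-restricted control. By the study's methods, diet mice were 12 weeks old at the start of an 8 week protocol and were sampled at 20 to 21 weeks. Restriction went from 10% to 40% in steps over 4 weeks, food was given at ZT12, and controls were night-restricted in the last 1 week. Corticosterone was injected at 5 mg per kg daily at ZT11 for 7 days in mice that were 12 weeks old before 2 weeks of acclimatization and were also on night-restricted feeding. By the same methods, the controls of that treatment were injected with its vehicle of ethanol in oil.

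Total estimated counts per library were 14235473 to 20788575 in the caloric restriction time series, 10057544 to 17089004 in the control time series, 36442195 to 39492146 in the diet experiment and 13739631 to 16077943 in the corticosterone experiment. Estimated counts of a member in a single library ran from 855.2 for *Slc25a20* to 28498.5 for *Cpt1a*. Levels are in CPM, counts scaled to a common library total by TMM within each of the 4 tables, so levels set side by side across tables were normalized separately. The diets of the time series came in separate count tables with separate series of library numbers, and no label says whether they were prepared or sequenced together. Diet and a possible batch cannot be told apart there, so a test of levels between them carries both.

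The targeted gene, *Nr3c1*, separated the genotypes in every time-series library. All WT libraries held 70.5 to 117.5 CPM and all GR LKO libraries held 16.2 to 31.9 CPM, with no overlap. At ZT12 on caloric restriction, for example, WT libraries were at 102, 98.5 and 104 CPM and GR LKO libraries at 31.0, 31.9 and 30.6 CPM. Averaged over the day, *Nr3c1* fell on caloric restriction, with a log2 fold change of -1.84 ± 0.04 and an edgeR adjusted p of 1.01e-24, where ± gives the standard error (SE) of a log2 fold change. It fell on the control diet too, with a log2 fold change of -1.96 ± 0.05 and an edgeR adjusted p of 5.13e-26. In bulk liver, fewer cells of a type and less RNA per cell cannot be told apart. The tissue label held against its markers: the summed level of 7 hepatocyte markers was 112230.0 to 173393 (median 130311) CPM over WT libraries on caloric restriction and 73609 to 108881 (median 94234) CPM on the control diet, with *Alb* the most abundant and none at 0.

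Levels of the 8 members can be ordered only after division by transcript length. Over the 22 WT libraries of the control time series, the mean level per kb (± SD) was 161 ± 15.3 CPM per kb for *Acadvl*, which encodes the very long chain acyl-CoA dehydrogenase of the inner membrane. *Acadm*, the medium chain dehydrogenase, followed at 131 ± 12.2 CPM per kb. *Acadl*, the long chain dehydrogenase, was at 88.4 ± 8.74 CPM per kb, and *Hadha*, the alpha subunit of the trifunctional protein that carries out later steps of the cycle, was at 84.4 ± 7.18 CPM per kb. These 3 dehydrogenases each catalyse the first step of a cycle for their chain lengths. *Cpt1a*, the carnitine acyltransferase of the outer membrane and the controlling step of entry, stood at 72.1 ± 26.9 CPM per kb. *Bdh1*, the enzyme that interconverts acetoacetate and beta-hydroxybutyrate, stood at 61.0 ± 12.3 CPM per kb. The carnitine acyltransferase of the inner membrane, *Cpt2*, was at 56.6 ± 8.06 CPM per kb, and the carnitine-acylcarnitine carrier, *Slc25a20*, was at 52.0 ± 7.86 CPM per kb. *Cpt1a* had the widest SD of the 8, and *Acadl*, *Hadha*, *Bdh1*, *Cpt2* and *Slc25a20* did not differ from it beyond that SD. *Acadl* and *Hadha* did not differ beyond the wider SD between them, nor did *Bdh1*, *Cpt2* and *Slc25a20* among them. In GR LKO mice on caloric restriction, a group normalized in another table, *Bdh1* was at 94.0 ± 14.0 CPM per kb.

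All 8 genes are protein-coding and lie on separate chromosomes in GENCODE vM21 (mouse build GRCm38, also called mm10). The transport genes are *Cpt1a* (ENSMUSG00000024900, plus strand) at chr19:3322334-3385733, *Slc25a20* (ENSMUSG00000032602, plus strand) at chr9:108662088-108684641 and *Cpt2* (ENSMUSG00000028607, minus strand) at chr4:107903981-107923610. The dehydrogenase genes are *Acadvl* (ENSMUSG00000018574, minus strand) at chr11:70010183-70015411, *Acadl* (ENSMUSG00000026003, minus strand) at chr1:66830839-66863277 and *Acadm* (ENSMUSG00000062908, minus strand) at chr3:153922357-153944632. The trifunctional subunit gene is *Hadha* (ENSMUSG00000025745, minus strand) at chr5:30118304-30155162, and the ketone body gene is *Bdh1* (ENSMUSG00000046598, plus strand) at chr16:31422280-31458901.

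The diet experiment asked what caloric restriction changes at ZT12, just before food, in WT mice. By edgeR (a quasi-likelihood test, with p-values adjusted by Benjamini-Hochberg over all genes), 3 of the 8 members were called at an adjusted p under 0.05 and all 3 were lower, beside 47.1% of all genes tested (23.5% higher and 23.6% lower). A count of 3 in 8 is near that background. Among the transport genes, *Cpt1a* was at 639.7, 746 and 707 CPM on the control diet and 539, 523 and 471 CPM on caloric restriction. Every restricted library was below every control library. *Cpt1a* fell, with a log2 fold change of -0.45 ± 0.09 and an edgeR adjusted p of 0.00628, lower in 3 of 3 restricted libraries. *Cpt2* was at 187, 186 and 166 CPM on the control diet and 116, 133 and 152 CPM on caloric restriction. The groups did not overlap, and the highest restricted library came close to the lowest control library. *Cpt2* fell by 0.43 ± 0.11 (log2), with an edgeR adjusted p of 0.0161. Without control replicate 1 the edgeR adjusted p for *Cpt2* was 0.0576, without control replicate 2 it was 0.0583 and without restricted replicate 2 it was 0.0553. The log2 fold changes were -0.40, -0.41 and -0.42 in turn. *Slc25a20*, which carries acylcarnitines between both enzymes, had a log2 fold change of -0.04 and was not called.

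Of the genes of the beta-oxidation cycle, no member was called by edgeR in the diet experiment, and their log2 fold changes ran from -0.26 for *Hadha* to 0.21 for *Acadl*. *Hadha* was at 397, 407 and 399 CPM on the control diet and 287, 371 and 344 CPM on caloric restriction. The restricted libraries were all lower, and restricted replicate 1 was the lowest. Its edgeR adjusted p was 0.0680, 0.0484 without restricted replicate 2, and 0.0411 by DESeq2. The long chain dehydrogenase *Acadl* also had groups that did not overlap, at 233, 243 and 214 CPM on the control diet and 255, 288 and 253 CPM on caloric restriction. Here the restricted libraries were the higher ones, with an edgeR adjusted p of 0.0862. The ketone body enzyme gene *Bdh1* was at 303, 304 and 275 CPM on the control diet and 119, 124 and 86.9 CPM on caloric restriction. All restricted libraries lay far below all control libraries. *Bdh1* fell by 1.42 ± 0.14 (log2), with an edgeR adjusted p of 4.45e-04, and the call held without any 1 of the 6 libraries, at 4.52e-04 to 0.00350. In all, 5 of the 8 members had groups that did not overlap, beside 59.0% of all genes tested and 47.1% called, so the members' share was near the background.

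The WT libraries of the time series at ZT12 gave a different picture for the transport genes. There, diet coincided with count table and series of library numbers, so a possible batch cannot be told apart from it. The mice also differed: those of the time series carried floxed *Nr3c1*, while those of the diet experiment were labelled genotype WT, with controls titled AL. In those libraries *Cpt1a* was at 514, 492, 446 and 509 CPM on the control diet and 517, 794 and 687 CPM on caloric restriction, in tables normalized separately. The log2 fold change of *Cpt1a* was 0.43 (edgeR adjusted p 0.0421), the opposite sign to the diet experiment, and that of *Slc25a20* was 0.25 (edgeR adjusted p 0.0330), also the opposite sign. *Acadm* and *Acadl* had log2 fold changes of 0.44 and 0.53 there, with edgeR adjusted p of 0.00478 and 7.94e-04. *Bdh1* was again called lower, while *Cpt2* was at -0.03 with an edgeR adjusted p of 0.843. The level of *Cpt1a* in WT mice at ZT12 ranged widely among experiments, from 165 to 259.8 CPM in the controls of the corticosterone experiment to 639.7 to 746 CPM in those of the diet experiment.

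Of 42 other genes of the pathway, 41 were tested in the diet experiment, with 12 called higher and 9 lower by edgeR. Over all genes tested, 23.5% were called higher and 23.6% lower, so these counts were near the background. Fatty acid activation and carnitine genes had 4 higher and 3 lower of 10, other beta-oxidation enzymes 0 higher and 3 lower of 11, other ketone body genes 2 higher and 1 lower of 8, and regulators 6 higher and 2 lower of 12. *Pdk4*, the kinase that turns off pyruvate dehydrogenase, was at 2.36 to 2.85 CPM on the control diet and 44.8 to 262 CPM on caloric restriction, with 1 restricted library far above the others. It rose by 5.53 (log2, edgeR adjusted p 0.00149). *Cpt1b*, the muscle form of the outer-membrane acyltransferase, rose by 2.07 and the coactivator gene *Ppargc1a* by 1.94. The fatty acid binding protein gene *Fabp1* fell by 1.75, the acyl-CoA synthetase gene *Slc27a2* by 0.68 and the dienoyl-CoA reductase gene *Decr1* by 0.66. *Hadhb*, which encodes the beta subunit paired with *Hadha*, fell by 0.31 (edgeR adjusted p 0.0171). *Ppara* was not called, at 0.19. Hepatocyte markers had 2 of 7 called higher (*Alb* at 0.99 and *Hnf4a* at 0.69), and endothelial markers had 4 of 6 called higher, up to 0.98 for *Lyve1*. The summed endothelial level was 116 to 152 CPM on the control diet, with *Kdr* the most abundant, and 194 to 222 CPM on caloric restriction, with *Clec4g* the most abundant and none at 0. The summed hepatocyte level was 90164.5 to 94386 CPM on the control diet and 155740 to 159034 CPM on caloric restriction, with *Alb* the most abundant. In the same order, stellate sums were 181 to 226 and 261 to 299 CPM and adipocyte sums 3.35 to 5.92 and 8.49 to 9.22 CPM. Lymphocyte sums were 1.63 to 3.22 and 0.454 to 0.683 CPM. None of these sums overlapped between the diets, while Kupffer and myeloid, cholangiocyte and erythrocyte sums did. Stellate markers had 2 higher and 1 lower of 6, cholangiocyte markers 2 higher of 4, lymphocyte markers 1 lower of 2, erythrocyte markers 1 lower of 4 and adipocyte markers 1 higher of 1. Kupffer and myeloid markers had 0 of 6 called and exocrine pancreas 0 of 1 by edgeR. The part of these cell types in the members' values was not tested.

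**Figure D1:**
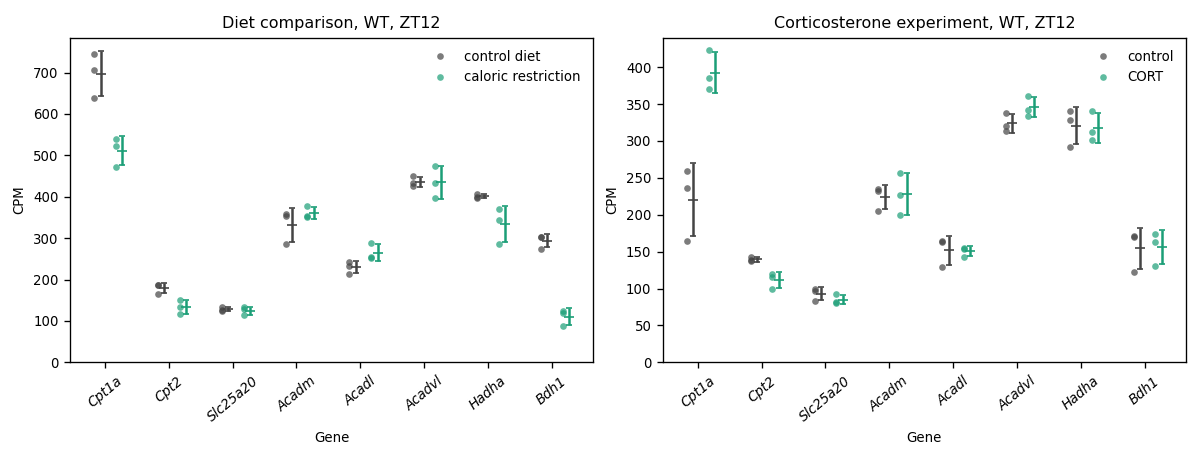
CPM (vertical axis) of the 8 genes in WT liver at ZT12 in the diet experiment and in the corticosterone experiment, with points for single mice, horizontal marks for means and bars for the SD (3 mice per group). *Bdh1* lay at 86.9 to 124 CPM on caloric restriction against 275 to 304 CPM on the control diet, and *Cpt1a* at 370.1 to 423 CPM with CORT against 165 to 259.8 CPM without.

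The corticosterone experiment asked what added glucocorticoid does at ZT12 without restriction of calories. By edgeR (quasi-likelihood test, Benjamini-Hochberg), 1 of 8 members was called, beside 8.11% of all genes (4.47% higher and 3.64% lower), so the members' share of 1 in 8 was close to the background. The called member was *Cpt1a*, the controlling step of entry, at 259.8, 236 and 165 CPM in controls and 370.1, 423 and 385 CPM with CORT. All CORT libraries were above all controls, and control replicate 3 was the lowest. *Cpt1a* rose by 0.83 ± 0.17 (log2), with an edgeR adjusted p of 0.0293, higher in 3 of 3 CORT libraries. The call was lost without CORT replicate 1 (0.0711), CORT replicate 2 (0.0547), CORT replicate 3 (0.0804) or control replicate 2 (0.0972), each an edgeR adjusted p. The inner-membrane partner *Cpt2* was at 137, 143 and 139 CPM in controls and 99.8, 119 and 116 CPM with CORT. Its groups did not overlap, as in 32.9% of all genes tested, and CORT libraries were the lower ones, with a log2 fold change of -0.32 ± 0.09 and an edgeR adjusted p of 0.0831. The other 6 members, from the carrier *Slc25a20* at -0.13 to *Acadvl* at 0.09, were not called and *Bdh1* was at 0.01. *Nr3c1* itself was not called, at -0.06.

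Other genes of the pathway in the corticosterone experiment had 4 called higher and 3 lower of 40 tested by edgeR. Over all genes tested there, 4.47% were called higher and 3.64% lower. Activation and carnitine genes had 1 lower of 10, other beta-oxidation enzymes 1 higher of 11, other ketone body genes 1 lower of 8 and regulators 3 higher and 1 lower of 11. The phosphatidate phosphatase gene *Lpin1*, also a coactivator of PPARα, was at 4.46 to 61.9 CPM in controls and 365 to 709.97 CPM with CORT, and rose by 4.51 (log2, edgeR adjusted p 0.0374). The coactivator gene *Ppargc1b* rose by 1.23 and the enoyl-CoA isomerase gene *Eci2* by 0.85. *Pdk4* fell by 1.37, the ketone body transporter gene *Slc16a1* by 0.65 and the acyl-CoA synthetase gene *Acsl3* by 0.62. *Hadhb* and *Ppara* were not called, at -0.03 and 0.56. The hepatocyte marker *Hnf4a* rose by 0.84, 1 of 7 in its list, and 1 endothelial marker of 6, 1 stellate marker of 6 and 1 cholangiocyte marker were lower, the endothelial one being *Kdr* at -0.62. The summed endothelial level was 94.97 to 120.3 CPM in controls and 76.9 to 91.9 CPM with CORT, with *Clec4g* the most abundant. The summed erythrocyte level was 481 to 594 CPM in controls and 231 to 414 CPM with CORT, with *Hbb-bs* the most abundant. By edgeR, 0 of 4 erythrocyte markers were called, and neither sum overlapped between the groups. The part of these cells in the members' values was not tested.

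The time series asked how loss of hepatocyte GR changes the pathway at each hour. On caloric restriction, GR LKO against WT gave 5 calls in 48 tests of members by edgeR (quasi-likelihood test, Benjamini-Hochberg), 4 of them *Bdh1*. At ZT0, 0 members were called by edgeR, beside 0.502% of all genes, with 2 at an unadjusted p under 0.05 and 1 called by DESeq2, beside 13.2% and 2.52% of all genes tested. Shares for DESeq2, here and below, are out of all genes with a count (17224 here, beside 12140 past the filter on low counts). All 8 members passed that filter, and the background for such genes may be higher. At ZT4, 1 member was called, beside 0.690% of genes, and 1 at ZT12, beside 15.3%. At ZT8, 0 members were called by edgeR, beside 2.55%, with 3 at an unadjusted p under 0.05 and 2 called by DESeq2, beside 17.3% and 4.03% of all genes tested. At ZT16, 2 members were called, beside 4.54%, and 1 at ZT20, beside 1.47%. The share of 1 in 8 at ZT12 was near its background, and those at ZT4, ZT16 and ZT20 were above theirs. For a list chosen with earlier results of these data known, this is a description only. Over all 48 tests, 41 log2 fold changes were positive and 23 had groups that did not overlap, beside 49.9% and 25.9% over all genes and time points.

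*Bdh1*, which makes beta-hydroxybutyrate from acetoacetate, stood apart from the other members on caloric restriction. At ZT12, *Bdh1* was at 135, 147 and 135 CPM in WT and 325, 349 and 378 CPM in GR LKO. Every GR LKO library was above every WT library by a wide margin. *Bdh1* rose by 1.33 ± 0.09 (log2), with an edgeR adjusted p of 3.50e-04, higher in 3 of 3 GR LKO libraries. At ZT16, the WT libraries were at 86.5, 100.03 and 84.5 CPM, the lowest *Bdh1* group mean of the series, and the GR LKO libraries at 239, 250.4 and 268 CPM. The groups again lay far apart, and *Bdh1* rose by 1.49 ± 0.10 (log2), with an edgeR adjusted p of 5.76e-04. Both calls held without any 1 of the 6 libraries, at 0.00177 to 0.00303 for ZT12 and 0.00277 to 0.00550 for ZT16. At ZT4, *Bdh1* was at 164, 186 and 197 CPM in WT and 328, 314 and 289 CPM in GR LKO, groups that did not overlap. It rose by 0.78 ± 0.10 (log2, edgeR adjusted p 0.0286). That call was lost without GR LKO replicate 1 (0.0954), 2 (0.152) or 3 (0.0694) and without WT replicate 1 (0.0652) or 2 (0.120), as edgeR adjusted p. At ZT20, *Bdh1* was at 126, 142 and 161 CPM in WT and 255, 233 and 247 CPM in GR LKO, with all GR LKO libraries higher. It rose by 0.79 ± 0.11 (log2, edgeR adjusted p 0.0209), a call lost without WT replicate 1 (0.0948), 2 (0.0920) or 3 (0.0665). The remaining time points had no call by edgeR in separate fits of all their libraries with the filter on low counts. DESeq2 called *Bdh1* at both, with adjusted p of 6.95e-07 at ZT0 and 3.04e-05 at ZT8. So did edgeR in a single fit of all libraries of the diet, with 0.0124 and 4.29e-05, and at ZT8 with no filter on low counts (0.0434). *Bdh1* was at 189.7, 163 and 193 CPM in WT and 257, 266 and 289 CPM in GR LKO at ZT0, with a log2 fold change of 0.57 and an edgeR adjusted p of 0.0530. At ZT8 the WT libraries, at 231, 139 and 183 CPM, spread more widely than the GR LKO libraries, at 329.6, 342 and 326 CPM. The groups did not overlap at either time, and at ZT8 the edgeR adjusted p of 0.0525 became 0.0231 without WT replicate 1 and 0.0345 without WT replicate 2.

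Other markers differed between the genotypes in the same ZT12 libraries on caloric restriction as *Bdh1*. Hepatocyte markers had 4 of 7 called lower by edgeR, Kupffer and myeloid markers 2 of 6 higher, endothelial markers 1 of 6 higher, erythrocyte markers 1 of 4 higher and cholangiocyte markers 1 of 3 lower. The summed hepatocyte level was 168112 to 173393 CPM in WT and 120984 to 135892 CPM in GR LKO, with *Alb* the most abundant. The summed Kupffer and myeloid level was 34.8 to 59.7 CPM in WT and 79.0 to 135 CPM in GR LKO, with *Clec4f* the most abundant. The summed endothelial level was 150.01 to 179.6 CPM in WT and 197 to 221 CPM in GR LKO, with *Clec4g* the most abundant, and no marker of these 3 lists was at 0. None of these sums overlapped between the genotypes. At ZT16, where *Bdh1* also rose, 1 of 7 hepatocyte markers was called lower and 1 of 4 erythrocyte markers higher by edgeR, and the hepatocyte sum was 134650.0 to 144383 CPM in WT and 104690.0 to 131095 CPM in GR LKO, again with no overlap. The Kupffer and myeloid and endothelial sums overlapped at ZT16. Endothelial sums did not overlap at ZT4, at 153 to 176 CPM in WT and 203 to 237 CPM in GR LKO, or at ZT8, at 152 to 167 and 192 to 206 CPM, with *Kdr* the most abundant in GR LKO at both. Over the 6 time points on caloric restriction, sums did not overlap at 4 for hepatocyte markers (lower in GR LKO, at ZT0, ZT8, ZT12 and ZT16) and at 3 for endothelial markers. They did not overlap at 3 for lymphocyte markers (ZT0, ZT12 and ZT16) and at 1 each for Kupffer and myeloid and cholangiocyte markers (ZT12). The same held at 1 for adipocyte markers (ZT20), and all of these sums were higher in GR LKO. Lymphocyte sums were very low, at 0.210 to 0.280 CPM in WT and 0.346 to 0.616 CPM in GR LKO at ZT12. No lymphocyte marker passed the filter on low counts at ZT12 or ZT16, and at ZT0 0 of 3 were called. Cholangiocyte sums at ZT12 lay close together, at 26.4 to 31.3 CPM in WT and 31.5 to 32.2 CPM in GR LKO. *Spp1* was the most abundant, and the 1 cholangiocyte marker called there was lower. The part of these cells in the values of *Bdh1* was not tested. WT replicate 3 at ZT12 held exocrine pancreas markers at a sum of 595 CPM, and GR LKO replicate 1 held skeletal muscle markers at a sum of 115 CPM. Without WT replicate 3 the log2 fold change of *Bdh1* was 1.31, and without GR LKO replicate 1 it was 1.38, beside 1.33 with all libraries.

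The other call on caloric restriction was *Cpt1a*, the entry step, at ZT16, 4 h after food. WT libraries were at 156, 151 and 165 CPM and GR LKO libraries at 207, 327 and 299 CPM. The groups did not overlap, and GR LKO replicate 1 was well below the other two. *Cpt1a* rose by 0.83 ± 0.16 (log2), with an edgeR adjusted p of 0.0305. The call was lost without GR LKO replicate 2 (0.0871) or 3 (0.1096) and without WT replicate 1 (0.114), 2 (0.0955) or 3 (0.0855), each an edgeR adjusted p. At ZT12, before food, *Cpt1a* was at 517, 794 and 687 CPM in WT and 669, 722 and 602 CPM in GR LKO. These groups overlapped fully, with a log2 fold change of -0.00. The carrier *Slc25a20* was positive at 6 of 6 time points on caloric restriction, from 0.01 to 0.32 (log2), with groups that did not overlap at 4 and no call by edgeR in separate fits. It was called at ZT8 by DESeq2 (adjusted p 0.0391) and by edgeR in a single fit of the diet (adjusted p 0.0402). DESeq2 also called *Cpt1a* at ZT20 (adjusted p 0.0109). The trifunctional subunit *Hadha* and the dehydrogenase *Acadl* were also positive at 6 of 6, at 0.00 to 0.20 and 0.02 to 0.21, with no call by edgeR or DESeq2. *Cpt2* ranged from -0.16 to 0.39, *Acadm* from -0.02 to 0.12 and *Acadvl* from -0.10 to 0.09, with signs that differed between time points and no call by edgeR or DESeq2.

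On the control diet, GR LKO against WT gave 3 calls in 48 tests of members by edgeR (quasi-likelihood test, Benjamini-Hochberg), all of them *Bdh1*. At ZT0, 1 member was called, beside 0.536% of all genes, 1 at ZT8, beside 1.43%, and 1 at ZT16, beside 1.98%. These shares of 1 in 8 were above the background, again as a description of a chosen list. At ZT4, 0 were called by edgeR, beside 0.195%, with 4 at an unadjusted p under 0.05 and 2 called by DESeq2, beside 9.75% and 1.14% of all genes tested. At ZT12, 0 were called by edgeR, beside 2.08%, with 1 at an unadjusted p under 0.05 and 1 called by DESeq2, beside 12.6% and 3.30% of all genes tested. At ZT20, 0 were called by edgeR, beside 0.420%, with 2 at an unadjusted p under 0.05 and 1 called by DESeq2, beside 11.3% and 1.71% of all genes tested. Of the 48 log2 fold changes, 41 were positive, and 21 had groups that did not overlap, beside 49.9% and 13.9% over all genes and time points. At ZT0, 8 of 8 members had groups that did not overlap, beside 22.4% of all genes tested. All 8 were higher in GR LKO there, with 6 at an unadjusted p under 0.05 and 3 called by DESeq2, beside 15.3% and 2.38% of all genes tested. The carrier *Slc25a20* was next after *Bdh1* at ZT0 in log2 fold change, at 93.1, 76.6 and 60.9 CPM in WT and 136, 117 and 104 CPM in GR LKO. Its log2 fold change was 0.62 ± 0.17, with an edgeR adjusted p of 0.162 and 0.0284 by DESeq2. DESeq2 also called *Cpt2* at ZT0, *Slc25a20* at ZT4 and ZT8 and *Acadl* at ZT8, with adjusted p of 0.0148, 0.0422, 0.0294 and 0.00399. A single fit of all libraries of the diet called *Cpt2*, *Slc25a20* and *Acadvl* at ZT0, with edgeR adjusted p of 0.0184, 0.00774 and 0.0360. In the ZT0 libraries, 1 of 4 erythrocyte and 1 of 2 adipocyte markers were also called higher in GR LKO by edgeR. The summed adipocyte level there was 5.64 to 7.55 CPM in WT, with *Fabp4* the most abundant, and 25.6 to 49.9 CPM in GR LKO, with *Cfd* the most abundant, while *Lep* and *Plin1* were at 0 in both. Adipocyte sums were higher in GR LKO with no overlap at 5 of 6 time points of this diet, all but ZT16. Averaged over the day on this diet, *Cfd* rose by 6.59 (log2, edgeR adjusted p 9.09e-10). *Fabp4*, the other adipocyte marker tested, was not called, at 0.00. Lower sums with no overlap came at ZT4 and ZT16 for hepatocyte markers, at ZT16 for endothelial markers and at ZT4 for cholangiocyte markers. The part of these cells in the members' values was not tested. Over the 6 time points *Slc25a20*, *Acadl* and *Hadha* were positive at each, at 0.05 to 0.62, 0.04 to 0.24 and 0.01 to 0.23 (log2). *Cpt1a* ranged from -0.07 to 0.33, *Cpt2* from -0.07 to 0.44, *Acadm* from -0.05 to 0.29 and *Acadvl* from -0.10 to 0.27.

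*Bdh1* was higher in every GR LKO library than in every WT library at all 6 time points of the control diet as well. At ZT0 it was at 167, 167 and 156 CPM in WT and 283, 243 and 242 CPM in GR LKO. The WT libraries were close together and GR LKO replicate 1 was the highest. *Bdh1* rose by 0.64 ± 0.09 (log2, edgeR adjusted p 0.0454), a call lost without WT replicate 1 (0.133), 2 (0.156) or 3 (0.0612) and GR LKO replicate 1 (0.180), 2 (0.115) or 3 (0.130). At ZT8, *Bdh1* was at 236, 243, 247 and 229.7 CPM in WT and 289, 293, 295 and 324 CPM in GR LKO. GR LKO replicate 4 lay above the other GR LKO libraries, which were close together. *Bdh1* rose by 0.33 ± 0.05 (log2, edgeR adjusted p 0.0147), with 0.0677 without WT replicate 1, 0.0531 without WT replicate 2 and 0.187 in a single fit of all libraries of the diet. At ZT16, *Bdh1* was at 179, 183, 142 and 159 CPM in WT and 291, 237 and 251 CPM in GR LKO. The lowest GR LKO library was above the highest WT library, and *Bdh1* rose by 0.65 ± 0.11 (log2, edgeR adjusted p 0.0301). That call was lost without GR LKO replicate 1 (0.0836), 2 (0.0600) or 3 (0.0786) and without WT replicate 1 (0.0501), 2 (0.0552) or 4 (0.0816). At the other time points the log2 fold changes of *Bdh1* were 0.46 at ZT4, 0.48 at ZT12 and 0.73 at ZT20. The edgeR adjusted p values there were 0.169, 0.0518 and 0.0727, and those of DESeq2, which called all of them, were 0.00286, 8.71e-04 and 7.84e-05. In a single fit of the diet, edgeR called *Bdh1* at ZT12 (0.00205) and ZT20 (5.03e-05). At ZT12, WT libraries were at 215, 246, 243 and 202 CPM and GR LKO libraries at 341, 278, 349.7 and 289 CPM, again with no overlap.

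Averaged over the 6 time points in a fit of all libraries of a diet, 4 of 8 members were called on caloric restriction by edgeR (quasi-likelihood test, Benjamini-Hochberg), all higher in GR LKO, beside 32.9% of all genes (15.6% higher and 17.3% lower). By edgeR, 5 of 8 were called on the control diet, all higher, beside 18.6% of genes (10% higher and 8.59% lower). Both counts were above the background for higher calls. The members were chosen with earlier results of these data known, so these counts describe the list and do not test it. The median log2 fold change of the 8 members was 0.11 on caloric restriction and 0.13 on the control diet. *Bdh1* had lowest, median and highest levels of 84.5, 154 and 231 CPM in 18 WT libraries on caloric restriction and 233, 289 and 378 CPM in 18 GR LKO libraries. The lowest GR LKO library was just above the highest WT library over the whole day. *Bdh1* rose by 0.97 ± 0.05 (log2, edgeR adjusted p 2.39e-14). On the control diet, *Bdh1* was at 119, 181 and 247 CPM in 22 WT libraries and 227, 280.3 and 349.7 CPM in 20 GR LKO libraries, ranges that overlapped. It rose by 0.55 ± 0.04 (log2, edgeR adjusted p 2.05e-11). The call of *Bdh1* held without each replicate on both diets, as did those of *Slc25a20*.

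The carrier gene *Slc25a20* had lowest, median and highest levels of 73.5, 86.0 and 132 CPM in WT and 84.8, 100.04 and 148 CPM in GR LKO on caloric restriction. The ranges overlapped over most of their width. Averaged over the day it rose by 0.21 ± 0.04 (log2, edgeR adjusted p 5.13e-05), and on the control diet by 0.26 ± 0.05 (edgeR adjusted p 4.11e-04). *Cpt1a* was at 151, 319 and 794 CPM in WT and 207, 332 and 722 CPM in GR LKO on caloric restriction. Its ranges nearly coincided over the day, and averaged over the time points it rose by 0.30 ± 0.06 (log2, edgeR adjusted p 3.11e-04). *Cpt1a* was not called on the control diet, at 0.13 ± 0.05 with an edgeR adjusted p of 0.0728. Its inner-membrane partner *Cpt2* was not called on caloric restriction, at 0.06, and rose by 0.13 ± 0.04 on the control diet (edgeR adjusted p 0.0300). That call was lost without replicate 2 (0.261) and without replicate 3 (0.129) of each group. The long chain dehydrogenase *Acadl* rose by 0.13 ± 0.03 on caloric restriction (edgeR adjusted p 7.67e-04), with 0.0878 without replicate 3, and by 0.16 ± 0.03 on the control diet (edgeR adjusted p 3.96e-04). *Hadha* rose by 0.09 ± 0.03 on the control diet (edgeR adjusted p 0.0414), and its call was lost without replicate 1 (0.140), 2 (0.129), 3 (0.132) or 4 (0.0810) and with no filter on low counts (0.0641). On caloric restriction *Hadha* was not called, at 0.09 ± 0.04 with an edgeR adjusted p of 0.0700 that became 0.0417 without replicate 1. The medium chain dehydrogenase *Acadm* was not called on either diet, at 0.06 and 0.08, and on caloric restriction its edgeR adjusted p of 0.0837 became 0.0106 without replicate 1. *Acadvl* was not called on either diet, at -0.00 and 0.04.

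Of the 42 other genes of the pathway, all tested in the day-averaged fits, edgeR called 16 higher and 7 lower in GR LKO on caloric restriction and 18 higher and 0 lower on the control diet. Over all genes tested, 15.6% were called higher and 17.3% lower on caloric restriction. On the control diet 10% of all genes were called higher and 8.59% lower. Activation and carnitine genes had 5 higher and 1 lower of 10 on caloric restriction and 4 higher on the control diet. Other beta-oxidation enzymes had 4 and 7 higher of 12, and other ketone body genes had 6 higher and 1 lower of 8 on caloric restriction and 5 higher on the control diet. Regulators had 1 higher and 5 lower of 12 on caloric restriction and 2 higher on the control diet. On caloric restriction *Fabp1* rose by 0.87 (log2, edgeR adjusted p 3.72e-06), the acyl-CoA dehydrogenase gene *Acad10* by 0.57 and the dehydrogenase gene *Bdh2* by 0.50. *Lpin1* fell by 2.40 (edgeR adjusted p 1.01e-04), the hormone gene *Fgf21* by 1.34 (at 0.113 to 2.52 CPM in WT and 0 to 2.08 CPM in GR LKO) and *Acacb*, whose product makes the malonyl-CoA that inhibits the enzyme of *Cpt1a*, by 0.38. *Ppara* rose by 0.34 (edgeR adjusted p 1.21e-04) and *Hadhb* was not called, at 0.09. On the control diet the carnitine acetyltransferase gene *Crat* rose by 0.66 (edgeR adjusted p 4.27e-06), *Pdk4* by 0.60 and *Acad10* by 0.57. *Hadhb* rose by 0.12, and *Ppara* was not called, at 0.20.

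Markers of liver cell types also moved with genotype in the day-averaged fits. Hepatocyte markers had 3 of 7 called lower by edgeR on caloric restriction (*Alb* at -0.21, *Apoa1* at -0.77 and *Hnf4a* at -0.19) and 4 of 7 lower on the control diet, where *Apoa1* was at -0.52. The summed hepatocyte level in GR LKO was 101584 to 135892 (median 113642) CPM on caloric restriction and 68153 to 99525 (median 78596) CPM on the control diet. Endothelial markers had 6 of 6 higher on caloric restriction, from 0.09 for *Clec4g* to 1.10 for *Lyve1*, and 0 of 6 called on the control diet. Their summed level on caloric restriction was 150.01 to 213 (median 172) CPM in WT, with *Clec4g* the most abundant, and 168 to 237 (median 203) CPM in GR LKO, with *Kdr* the most abundant and none at 0. Of the other lists, cholangiocyte and lymphocyte markers each had 1 called higher on caloric restriction, erythrocyte markers had 1 higher on each diet and adipocyte markers had 1 higher of 2 on the control diet. The part of these cells in the members' values was not tested. Exocrine pancreas markers summed to 307 CPM in WT replicate 2 at ZT16 on the control diet, beside a median of 0.517 CPM over WT libraries.

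**Figure D2:**
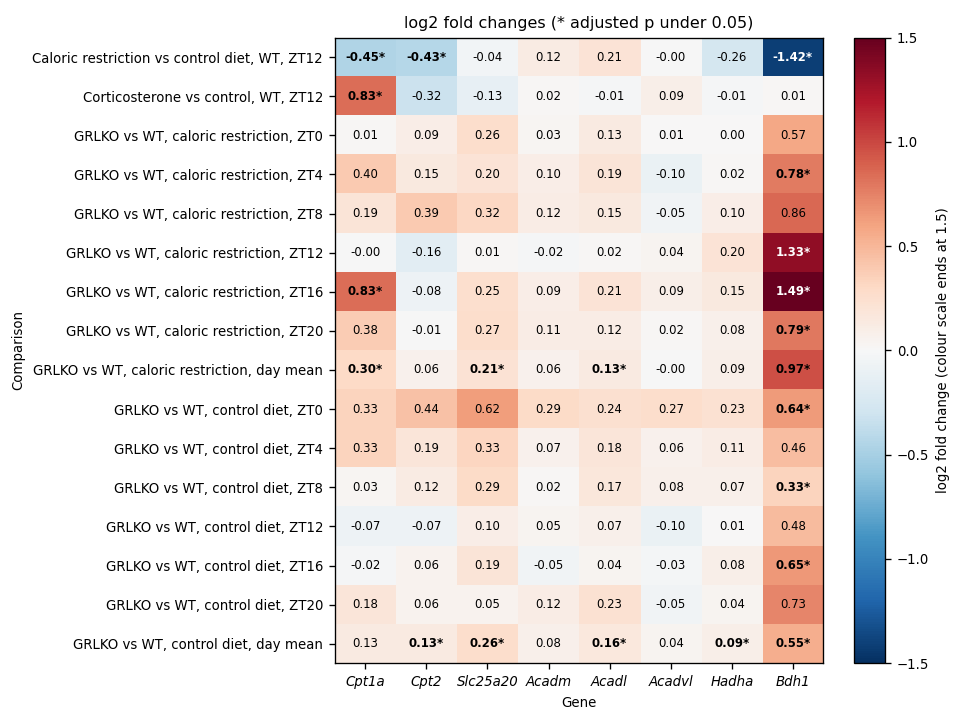
Log2 fold changes of the 8 genes (columns) in the diet and corticosterone comparisons in WT mice at ZT12 and in GR LKO against WT at each time point and averaged over the day on each diet, with a colour scale that ends at 1.5 in both directions and asterisks for an edgeR adjusted p under 0.05. *Bdh1* was positive in every genotype comparison, up to 1.49 at ZT16 on caloric restriction, and at -1.42 in the diet comparison.

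Tests of interaction asked whether the genotype effect differed between time points or diets. By edgeR (quasi-likelihood test, Benjamini-Hochberg), 1 of 8 members had a genotype effect that differed between time points on caloric restriction, beside 5.34% of all genes. That member was *Bdh1*, with an edgeR adjusted p of 0.00349. Without replicate 3 of each group it was 0.375. *Cpt1a* had an edgeR adjusted p of 0.0659, 0.00972 without replicate 1, and 0.00815 by DESeq2. By edgeR, 0 of 8 members were called on the control diet, beside 0.600% of genes, with 2 at an unadjusted p under 0.05 and 0 called by DESeq2, beside 10.03% and 1.26% of all genes tested.

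Between diets, the genotype effect on members differed at 2 of 6 time points by edgeR (quasi-likelihood test, Benjamini-Hochberg), both for *Bdh1*. Diet coincided here with count table and series of library numbers, so a genotype effect that differs by diet cannot be told apart from a possible batch. At ZT12, 1 member was called, beside 1.01% of all genes. The log2 fold change of *Bdh1* in GR LKO against WT was larger on caloric restriction than on the control diet by 0.87 ± 0.14 (edgeR adjusted p 0.0169), with 0.109 without replicate 1, 0.136 without replicate 2 and 0.163 without replicate 3. At ZT16, 1 member was called, beside 0.234%. There the difference for *Bdh1* was 0.85 ± 0.15 (log2, edgeR adjusted p 0.0499), with 0.201 without replicate 1, 0.277 without replicate 2, 0.202 without replicate 3, 0.0941 without replicate 4 and 0.0504 with RLE size factors. *Cpt1a* at ZT16 differed by 0.85 ± 0.21 (log2), with an edgeR adjusted p of 0.144 and 0.00770 by DESeq2. At ZT0, 0 were called by edgeR, beside 0% of genes, with 0 at an unadjusted p under 0.05 and 0 called by DESeq2, and the same counts held at ZT4, beside 0%, and at ZT20, beside 0%. The shares of all genes at an unadjusted p under 0.05 and by DESeq2 were 10.2% and 0.924% at ZT0, 6.03% and 0.204% at ZT4 and 6.97% and 0.262% at ZT20. At ZT8, 0 were called by edgeR, beside 0.0810%, with 1 at an unadjusted p under 0.05 and 0 called by DESeq2, beside 8.45% and 0.687% of all genes tested, a share of 1 in 8 near the background. Averaged over the day, 1 member was called, beside 3.01% of genes. *Bdh1* differed by 0.42 ± 0.07 (log2, edgeR adjusted p 3.57e-05), and the call held without each replicate.

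Daily rhythms were tested in each group by JTK_CYCLE with a period of 24 h and Benjamini-Hochberg adjustment over all genes. On the control diet 7 of 8 members were called rhythmic in WT, beside 32.3% of genes, and 3 in GR LKO, beside 28.3%. On caloric restriction 3 were called in WT, beside 27.9%, and 5 in GR LKO, beside 25.7%. The share in control WT was far above its background, and those in control GR LKO and restricted WT were near theirs. That in restricted GR LKO was above its own. As the members were chosen with earlier results of these data known, these shares only describe the list. These backgrounds cover 18651 to 18932 genes with no filter on low counts, which all 8 members passed. Among genes past that filter, calls were 6471 in control WT, 5784 in control GR LKO, 5760 in restricted WT and 5486 in restricted GR LKO. As these are out of fewer genes, that background is higher, and the comparisons of shares hold only for unfiltered genes. Differences in rhythm between groups were not tested by JTK_CYCLE. Calls over all genes fell in each group when a replicate was left out, for example from 5196 to at most 1899 in restricted WT.

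*Cpt1a*, the entry step, had the widest ratio of highest to lowest mean of the 8 in all 4 groups, and its level was highest at ZT12 in all 4 groups. In WT on the control diet its highest and lowest means were 490.3 at ZT12 and 198 at ZT0 CPM, a ratio of 2.47 (JTK_CYCLE adjusted p 5.91e-05). In GR LKO they were 466 at ZT12 and 233 at ZT20 CPM (JTK_CYCLE adjusted p 0.00266). On caloric restriction its lowest mean came at ZT16, 4 h after food, in both genotypes. WT means were 666 at ZT12 and 157 at ZT16 CPM, a ratio of 4.24 that JTK_CYCLE did not call (0.0974) and a fit of sine and cosine terms in edgeR did (adjusted p 0.0246). GR LKO means were 664 at ZT12 and 278 at ZT16 CPM, a ratio of 2.39 (0.0186). The JTK_CYCLE call in GR LKO was lost without replicate 1 (0.169), 2 (0.129) or 3 (0.121). *Cpt2*, on the inner membrane, was highest when *Cpt1a* was lowest on caloric restriction, with WT means of 226 at ZT16 and 82.5 at ZT8 CPM, a ratio of 2.74 (JTK_CYCLE adjusted p 0.00145). *Cpt2* means in GR LKO were 212 at ZT16 and 108 at ZT8 CPM (0.0238), a call lost without replicate 1 (0.0951), 2 (0.172) or 3 (0.0900). *Cpt2* on the control diet had ratios of 1.38 in WT (0.00254) and 1.33 in GR LKO (0.0165), the latter lost without replicate 2 (0.228) or 3 (0.175). The carrier *Slc25a20* had ratios of 1.40 in control WT (0.00914) and 1.39 in restricted GR LKO (0.0238), both called. In control WT that call was lost without replicate 1 (0.0805), 2 (0.109) or 4 (0.0699). In restricted GR LKO it was lost without replicate 1 (0.169), 2 (0.172) or 3 (0.159). *Slc25a20* was not called in control GR LKO (0.706) or restricted WT (0.0800), and the edgeR fit called the latter (adjusted p 9.48e-04).

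Among the genes of the cycle, *Acadl* was called in control WT at a ratio of 1.27 (JTK_CYCLE adjusted p 2.08e-04), in restricted WT at 1.42 (0.00109) and in restricted GR LKO at 1.32 (0.00303), with its highest mean at ZT12 in each. The last of these was lost without replicate 3 (0.0900). *Acadvl* was called only in control WT, at a ratio of 1.33 (2.97e-05), as was *Hadha* (0.00610). The *Hadha* call was lost without replicate 2 (0.168) or 3 (0.0563), and in restricted GR LKO the edgeR fit called *Hadha* (adjusted p 0.0265) where JTK_CYCLE did not (0.148). *Acadm* was called by JTK_CYCLE in none of the 4 groups, with adjusted p from 0.103 to 0.636, although in control WT the value was 0.0438 without replicate 3. The ketone body gene *Bdh1* was called in all 4 groups. On the control diet its means were 239 at ZT8 and 149 at ZT20 CPM in WT (2.74e-04) and 314 at ZT12 and 245 at ZT20 CPM in GR LKO (0.0134), and the GR LKO call was lost without replicate 2 (0.0889) or 3 (0.135). On caloric restriction they were 184 at ZT8 and 90.3 at ZT16 CPM in WT, a ratio of 2.04 (0.00203), lost without replicate 3 (0.0662). In GR LKO they were 350.4 at ZT12 and 245 at ZT20 CPM, a ratio of 1.43 (0.00303), lost without replicate 2 (0.0981).

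**Figure D3:**
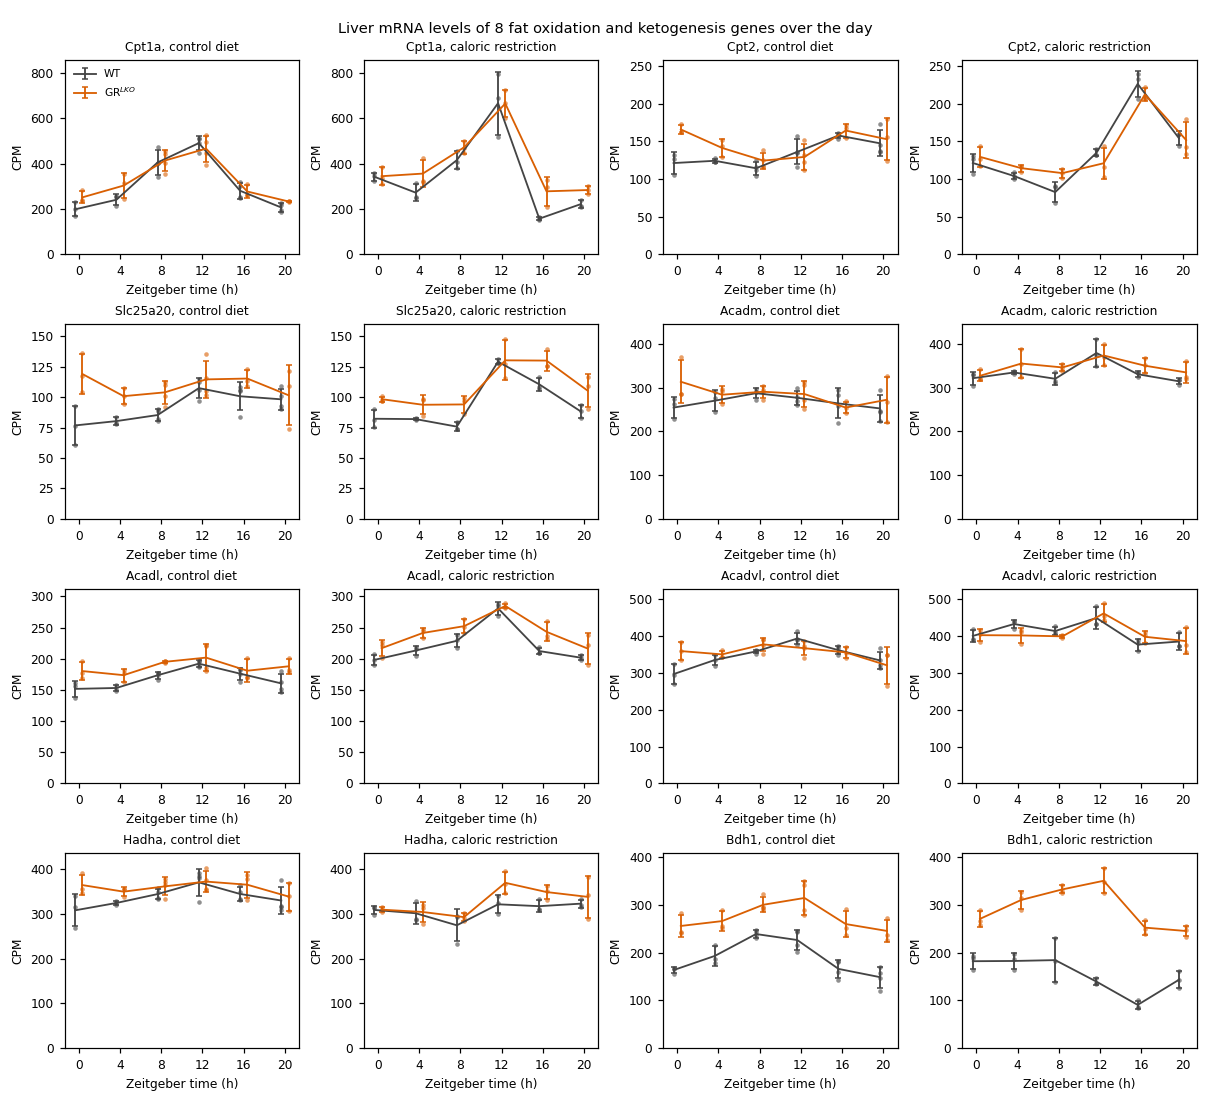
CPM (vertical axes, from 0) of the 8 genes against zeitgeber time in h, on the control diet and on caloric restriction, with points for single mice, lines through group means and bars for the SD, in grey for WT and orange for GR LKO. On caloric restriction the mean of *Bdh1* in WT was lowest, at 90.3 CPM, at ZT16, and that of *Cpt1a* reached 666 CPM at ZT12 and 157 CPM at ZT16.

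Likeness was measured as the Pearson correlation of group means of log2 CPM over the 24 groups of the time series, each diet centred on its own mean, and is given as a description. Of 28 pairs of members, 23 correlated positively and 5 negatively, with a median of 0.509. The extremes were -0.508 between *Cpt1a* and *Cpt2*, the acyltransferases of the outer and inner membrane, and 0.830 between the carrier *Slc25a20* and *Hadha*. Among 8872 genes with a mean of at least 5 CPM, *Cpt1a* was most like *Rab43* (0.955), *Mia2* (0.952) and *Sirt3* (0.948). *Slc25a20* was most like *Pex11a* (0.900), *Plce1* (0.894) and *Fitm2* (0.892). The nearest genes to *Cpt2* were *Ncbp2* (0.937), *Zfr* (0.935) and *Lman2* (0.922). For the dehydrogenases, *Acadvl* was nearest to *Slc27a2* (0.858), *Asgr1* (0.852) and *Cox4i1* (0.845), *Acadl* to *Pgm1* (0.923), *Cers6* (0.912) and *Slc25a11* (0.894) and *Acadm* to *Bcl2l13* (0.884), *Cmtm4* (0.815) and *Aldh6a1* (0.805). *Hadha* was nearest to *Hadhb* (0.912) and *Ghitm* (0.850), the first being the gene of its partner subunit. *Bdh1* was nearest to *Hyi* (0.935), *Ift52* (0.932) and *Pigp* (0.924).

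Promoter sequences, from 250 bases before to 50 after the start of transcription, were given for all 8 members by RefSeq (build GRCm38.p6), 9 promoters in all because *Bdh1* has 2. They were searched on both strands for AGGTCA, the core letters read by PPARα and other nuclear receptors, for the direct repeat of AGGTCA with 1 base between (which contains AGGTCA), for TGTTCT, core letters read by GR, for TGTTTAC, a forkhead motif, and for CACGTG, an E-box of clock factors. AGGTCA was found at 1 place each in the promoters of *Cpt1a*, *Acadm* and *Acadvl*, and it is in 16.3% of 32851 promoters of the same length. No other motif was found in any of the 9. TGTTCT is in 19.0% of all promoters, TGTTTAC in 3.65%, CACGTG in 7.15% and the direct repeat in 0.0396%. A match here is a description of letters, and no match says only that these letters are not in this window. The sequences of *Cpt1a* and *Bdh1* are shown because these members had the edgeR calls of GR LKO against WT at single time points. The *Cpt1a* promoter is chr19:3323051-3323350 on the plus strand, and those of *Bdh1* are chr16:31422047-31422346 and chr16:31428503-31428802, also on the plus strand. Capitals mark AGGTCA on either strand, read as TGACCT, its reverse complement, in *Cpt1a*, and the *Bdh1* promoters hold no capitals.
Cpt1a promoter: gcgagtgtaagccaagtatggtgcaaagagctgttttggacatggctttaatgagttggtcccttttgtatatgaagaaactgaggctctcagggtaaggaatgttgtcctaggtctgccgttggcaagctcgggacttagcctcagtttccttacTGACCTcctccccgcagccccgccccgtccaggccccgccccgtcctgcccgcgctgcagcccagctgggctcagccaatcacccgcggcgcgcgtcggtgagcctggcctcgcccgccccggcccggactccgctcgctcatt
Bdh1 promoter 1: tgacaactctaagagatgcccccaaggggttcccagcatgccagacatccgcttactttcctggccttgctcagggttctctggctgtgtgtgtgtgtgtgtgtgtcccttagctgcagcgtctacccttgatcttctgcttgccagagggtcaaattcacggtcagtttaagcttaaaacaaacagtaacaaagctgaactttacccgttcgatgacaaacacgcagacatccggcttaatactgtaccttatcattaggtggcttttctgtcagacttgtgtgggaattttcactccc
Bdh1 promoter 2: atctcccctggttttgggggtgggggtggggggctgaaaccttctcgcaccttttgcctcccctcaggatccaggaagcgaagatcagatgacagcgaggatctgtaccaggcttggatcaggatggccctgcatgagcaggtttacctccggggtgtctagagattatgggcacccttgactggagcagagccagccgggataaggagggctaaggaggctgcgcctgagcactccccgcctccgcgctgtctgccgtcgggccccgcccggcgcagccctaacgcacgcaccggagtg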

How the data were processed

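The values are estimated counts per gene that the authors deposited, made with Salmon 1.8.0 on mm10 after FastQC 0.11.9 and summed to genes with tximport 1.18.0, by the submitters' processing notes. The transcript annotation is not given in the sources used here. The authors tested with DESeq2 1.30. Their table of variance-stabilized values was not used. Counts were rounded to whole numbers, scaled by TMM within each table, filtered with filterByExpr (minimum count 10) and tested in R 4.3.3 with the quasi-likelihood test of edgeR 4.0.16 (limma 3.58.1). P-values were adjusted by Benjamini-Hochberg over all genes tested, and a gene was called at an adjusted p under 0.05. Rhythms were tested with JTK_CYCLE (period 24 h, 6 phases) on variance-stabilized values made with DESeq2 1.42.0. A replicate left out of a day-averaged, interaction or rhythm test was left out of every group. The code recovered most of the larger changes put into simulated counts with a fixed dispersion. That check set no required rate for changes as small as those of most members, nor for rhythm. Among 102 pairs of libraries within groups, 0 were identical, with a chi-square divided by its degrees of freedom of at least 10.4 and a median of 22.5. Transcript lengths were those of the longest APPRIS principal transcript in GENCODE vM21. Symbols were found for 27244 of 27654 gene IDs, and 410 had none. The library kit was given as TruSeq v2 with the samples, the methods also name a stranded kit, and counting by strand is not given.

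The members and gene lists were chosen with earlier results of these data known. Genes named were the 8 members, *Nr3c1*, and of 42 other pathway genes up to 3 that rose most and 3 that fell most among those called, with *Hadhb* and *Ppara* always. For likeness, the 3 genes with the highest correlation to each member were named. A gene that both rules also name is not reported here. Alternatives were DESeq2, RLE size factors, no filter on low counts, a block for replicate number, a fit of all libraries of a diet, the time-series libraries for the diet comparison, sine and cosine terms for rhythm, and leaving out each replicate. For rhythm, which was run with no filter on low counts, another was to keep only genes past filterByExpr.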

Additional observations from a re-analysis of the deposited data

Results flagged for a closer look

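Of 48 sets of 4 libraries tested for a value far from the others (6 control-diet groups of 4, each for the 8 genes), 3 held one, and chance flags about 1 in 20 groups. *Slc25a20* had 1 library at 83.7 CPM in WT at ZT16, away from the other 3 of its group. *Hadha* had 1 library at 376.5 CPM in WT at ZT20, and *Bdh1* had 1 at 323.6 CPM in GR LKO at ZT8, above the others. The genotype effect on *Bdh1* differed between time points on caloric restriction, with an edgeR adjusted p of 0.00349 that became 0.375 without replicate 3. It also differed between diets, which cannot be told apart from a possible batch. The difference was a log2 fold change of 0.87 at ZT12, 0.85 at ZT16 and 0.42 averaged over the day. At ZT12 and ZT16 these calls were lost when single replicates were left out, and the day average was kept in each case.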

How the results depend on the processing

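The direction of every called member was the same under DESeq2, RLE size factors, no filter on low counts and a replicate block. In the diet comparison 3 members were called (2 to 3 without single libraries, 4 by DESeq2). With the time-series libraries, from floxed mice in separate count tables, 5 were called, and *Cpt1a* (0.43) and *Slc25a20* (0.25) had the opposite sign (log2). The corticosterone comparison gave 1 call (0 to 1 without single libraries) and 0 with a replicate block. The genotype effect at single time points on caloric restriction gave 5 calls (4 to 6), 9 by DESeq2, 8 in a single fit of the diet and 2 with a replicate block. On the control diet it gave 3 (2 to 3), 11 by DESeq2, 7 in a single fit (where *Bdh1* at ZT8 was lost, at 0.187) and 0 with a replicate block. Averaged over the day, there were 4 calls on caloric restriction (3 to 6) and 5 on the control diet (3 to 4). The interaction with time on caloric restriction gave 1 (0 to 2) and 2 by DESeq2. The interaction with diet at single time points gave 2 (0 to 1), 1 with RLE size factors, 0 with a replicate block and 3 by DESeq2. Over all genes it was called for 123 at ZT12, 116 with RLE size factors, 5 with a replicate block and 473 by DESeq2. At ZT16 these counts were 29, 25, 3 and 186. Rhythm gave 18 calls (10 to 17) and 21 with sine and cosine terms. Leaving out a replicate lowered the rhythm calls over all genes too. On the control diet they were 6090 in WT (3685 to 4846) and 5289 in GR LKO (2087 to 4755). On caloric restriction they were 5196 in WT (1667 to 1899) and 4857 in GR LKO (987 to 1734). With sine and cosine terms they were 6966, 6361, 6762 and 6312 in turn. The cause was not tested. With a replicate block, 5 of 14 calls among 160 tests were kept and 0 gained. Replicate numbers only share titles: in 0 of 14 comparisons did every pair of libraries with the same number correlate over 0.1 (-0.235 to 0.223). Leaving out a replicate lost 70 and gained 7 calls in 1152 tests, and DESeq2 gained 15 in 200. At ZT12 the genotype effect on caloric restriction was called for 1795 genes, 2078 by DESeq2, 889 with a replicate block and 2805 in a single fit, and at ZT0 for 61, 434, 9 and 169. On the control diet these counts were 63, 407, 9 and 630 at ZT0, 166, 369, 36 and 36 at ZT8 and 232, 634, 37 and 469 at ZT16. Over all time points DESeq2 called 5.09% of all genes with a count on caloric restriction and 2.39% on the control diet. The diet comparison was called for 6155 genes, 6012 by DESeq2 and 4398 with the time-series libraries. The corticosterone comparison was called for 935 genes and 534 with a replicate block.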
